A study of Mus musculus with 6 samples.

Results

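The 36 genes described here encode the machinery that copies DNA and the enzymes that supply it with deoxynucleotides. They were taken by gene symbol from a module named DNA polymerase, replication fork and nucleotide synthesis, and are 36 of the 54146 genes counted. The source was 4T1, a cultured line from a mammary carcinoma of BALB/c mice, and total RNA was sequenced after depletion of ribosomal RNA. The groups were KO clone 1 and KO clone 2, both with the genotype Mki67-/-, and wild-type (WT) cells, with 2 libraries in each of the 3 groups. Mki67 encodes Ki-67, a nuclear protein of dividing cells that is widely used to mark proliferation. Each knockout line is 1 clone, so the loss of Mki67 and other differences between the lines cannot be told apart. Whether both libraries of a group were grown as separate cultures is not stated, so the p-values cover the spread between libraries alone, and this spread may be technical.

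Reads assigned to genes came to 17103941 to 22658499 in the 4 knockout libraries and to 10428970 and 16852152 in the WT libraries, and 13755 genes had enough reads to be tested. The unit of the levels is CPM, the count of a gene at a common library size after TMM (trimmed mean of M values) correction. Mki67 was at 85.8 and 103 CPM in KO clone 1 and at 39.9 and 52.7 CPM in KO clone 2, against 736 and 647 CPM in WT. Summed over 12 epithelial marker genes, levels were 5992 and 6021 CPM in KO clone 1 and 6067 and 6491 CPM in KO clone 2, against 4126 and 4768 CPM in WT, with Krt5 without a read, and of the 10 epithelial markers tested 5 were called higher and 1 lower in the mean of the clones. The 18 leukocyte markers summed to 13.1 to 29.4 CPM in the knockout libraries, against 45.0 and 55.2 CPM in WT, with 2 called higher and 2 lower of the 4 tested. The 10 fibroblast markers summed to 14.6 to 14.7 CPM in the knockout libraries, against 39.6 and 39.7 CPM in WT, nearly all from Pdgfra, and the 8 endothelial markers to at most 14.5 CPM in the knockout libraries. Cd3e, Cd8a, Adgre1, Ncr1, Col3a1, Lum, Thy1, Cdh5, Kdr and Emcn had no read in any library. The part of these marker differences in the results was not tested.

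DNA replication starts where the origin recognition complex has loaded the MCM helicase, which becomes active once Cdc45 and the GINS complex join it. DNA polymerase alpha with primase then lays down short primers, and polymerases epsilon and delta extend them while held on DNA by the PCNA ring, which replication factor C loads. RPA coats the exposed single strands, FEN1 and DNA ligase I join the lagging strand fragments, and ribonucleotide reductase, thymidylate synthase and thymidine kinase supply deoxynucleotides. Many of these genes are transcribed in late G1 and S phase under E2F transcription factors.

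The 36 genes did not move as 1 block. In the mean of both knockout clones against WT, 11 rose, 9 fell and 16 were not called (edgeR quasi-likelihood test, Benjamini-Hochberg adjusted p under 0.05). Over all genes tested, 26.6% were called higher and 29.4% lower in this comparison, so the members' shares of 30.6% and 25% lay near the background. The 20 called members compare with 56% of all genes called in either direction. The median log2 fold change of the 36 was 0.02, against -0.02 over all genes. Their summed level was 3123 and 3369 CPM in KO clone 1 and 3471 and 3509 CPM in KO clone 2, against 3392 and 3369 CPM in WT. KO clone 1 overlapped WT in this sum, and both KO clone 2 libraries lay above both WT libraries. In these bulk libraries a changed share of cells in S phase and a changed RNA level per cell cannot be told apart.

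Both clone comparisons use the same WT libraries. In KO clone 1, 8 members rose and 10 fell, where 24.7% of all genes were called higher and 26.2% lower, 50.9% in either direction. In KO clone 2, 10 rose and 5 fell, where 25.3% of all genes were called higher and 28.2% lower, 53.4% in either direction. Ung, Tk1, Pcna, Gins2, Orc6, Chaf1a and E2f1 were the 7 members called higher in both clones, and Prim1, Fen1, Rpa1 and Rfc4 were the 4 called lower in both. Across all genes 17.9% were called higher and 20% lower in both. All 4 knockout libraries lay above both WT libraries for 12 members and below them for 8, where this held for 27.7% and 30.1% of all genes tested. Ung alone passed 2-fold in the mean of the clones, and 5 members passed 1.5-fold. With each library left out in turn, 13 of the 20 calls in the mean of the clones, 9 of the 18 in KO clone 1 and 12 of the 15 in KO clone 2 were kept every time. Of the members called in both clones, Orc6, Chaf1a, Tk1, Ung, Prim1, Fen1 and Rpa1 kept both calls, while Gins2, E2f1 and Rfc4 could lose theirs in KO clone 1 and Pcna and Rfc4 theirs in KO clone 2. Of the members called in 1 clone alone, Gins1, Cdc45, Rfc5, Rrm1, Tyms and Chaf1b in KO clone 1 and Rfc1 in KO clone 2 lost the call without at least 1 library. E2f1 in KO clone 1 was at 0.19 without WT replicate 1, and Pcna in KO clone 2 was at 0.24 without KO clone 2 replicate 2. With all libraries, the E2f1 call in KO clone 1 was also lost by DESeq2 (0.34, adjusted p = 0.0787) and limma-voom (0.345, adjusted p = 0.0556). A replicate block in edgeR lost it too (0.35, adjusted p = 0.0552). So did upper-quartile scaling, unstranded counts, a filter on CPM, the groups compared alone and chromosome medians removed.

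**Figure D1:**
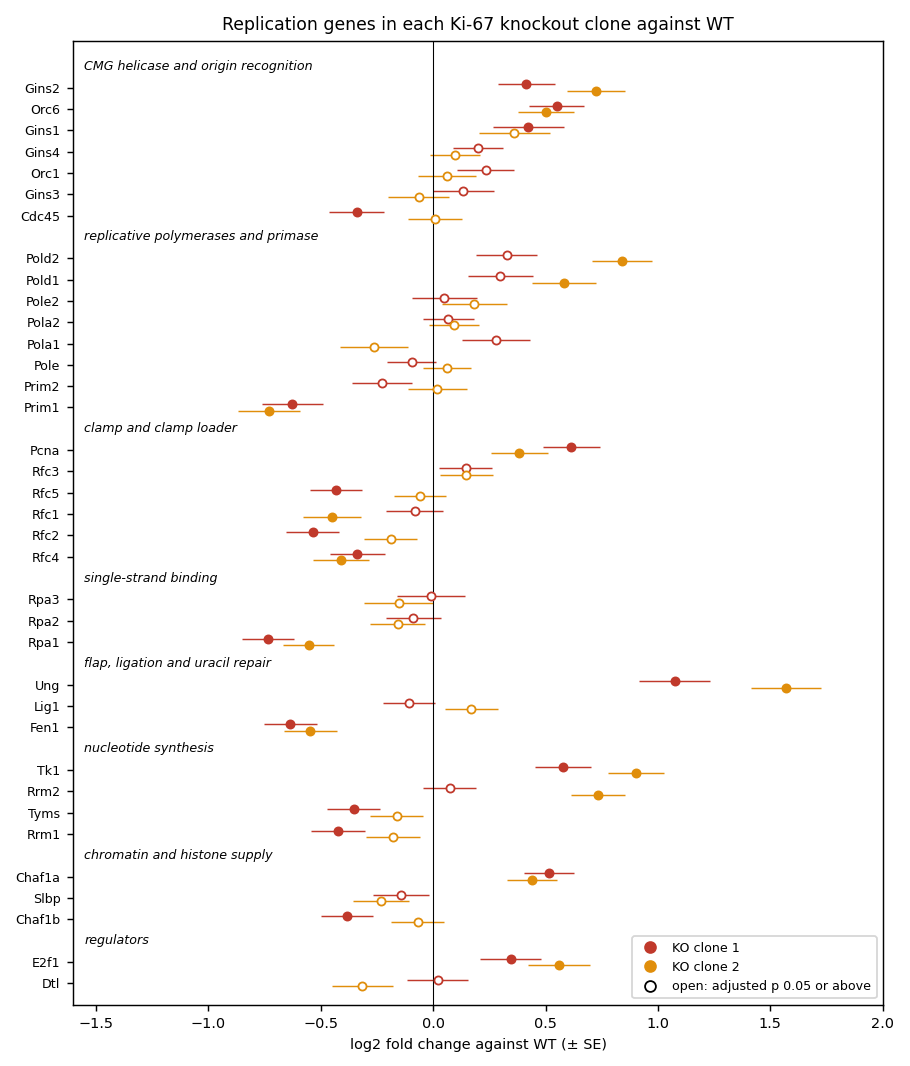
Log2 fold change of each of the 36 genes in KO clone 1 and KO clone 2 against WT, grouped by role, with bars for the SE of the fit and open points for genes at an adjusted p of 0.05 or more. Rises and falls are mixed within most roles, and Ung stands furthest out, at 1.07 in KO clone 1 and 1.57 in KO clone 2.

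The promoter windows of 4 members are printed because they hold the member that rose most (Ung), the one that fell most (Prim1), the 1 called member whose window held E2F letters (Pold1) and the one with the most E2F matches (Rfc3). They are RefSeq sequences on GRCm38.p6, from 250 bases before to 50 bases after the gene start, 5′ to 3′ in the direction of the gene. Ung is at chr5:114130185-114130484 on the plus strand, Prim1 at chr10:128014965-128015264 on the plus strand, Pold1 at chr7:44548766-44549065 on the minus strand and Rfc3 at chr5:151651159-151651458 on the minus strand. Capitals mark the E2F octamers TTTGGCGC, TTTCCCGC, TTTGCCGC and TTTCGCGC and the CCAAT box, read on either strand.
Ung: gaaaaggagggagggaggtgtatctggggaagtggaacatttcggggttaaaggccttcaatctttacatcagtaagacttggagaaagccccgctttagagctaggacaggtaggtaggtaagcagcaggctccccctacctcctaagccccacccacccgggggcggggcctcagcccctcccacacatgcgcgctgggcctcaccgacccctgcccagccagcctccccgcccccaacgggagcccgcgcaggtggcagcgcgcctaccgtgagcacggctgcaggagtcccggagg
Prim1: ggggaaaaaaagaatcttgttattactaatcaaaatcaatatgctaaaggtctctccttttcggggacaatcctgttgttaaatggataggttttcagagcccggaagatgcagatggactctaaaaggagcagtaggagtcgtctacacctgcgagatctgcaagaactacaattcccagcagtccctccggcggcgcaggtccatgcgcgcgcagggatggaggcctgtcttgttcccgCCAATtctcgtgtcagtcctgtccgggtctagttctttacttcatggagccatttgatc
Pold1: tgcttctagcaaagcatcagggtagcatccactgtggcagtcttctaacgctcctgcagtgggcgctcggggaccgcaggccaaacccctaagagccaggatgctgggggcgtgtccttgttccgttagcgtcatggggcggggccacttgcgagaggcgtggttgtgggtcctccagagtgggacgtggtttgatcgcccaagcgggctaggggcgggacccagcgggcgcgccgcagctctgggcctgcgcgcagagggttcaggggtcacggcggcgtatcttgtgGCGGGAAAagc
Rfc3: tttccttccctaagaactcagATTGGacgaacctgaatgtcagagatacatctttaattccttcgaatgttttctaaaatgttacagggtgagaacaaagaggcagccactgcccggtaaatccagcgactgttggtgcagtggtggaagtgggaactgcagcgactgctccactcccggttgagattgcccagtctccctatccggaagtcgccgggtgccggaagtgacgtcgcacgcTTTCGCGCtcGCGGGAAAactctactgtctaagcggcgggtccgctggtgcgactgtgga

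The Ung window held neither motif, the Prim1 window held 1 CCAAT, the Pold1 window held 1 E2F octamer and the Rfc3 window held 2 E2F octamers and 1 CCAAT. RefSeq windows were matched for 30 of the 36 members, as 34 windows. An E2F octamer was present in 8 of these 34 windows (23.5%), against 2.27% of all 32851 windows and 4.11% of the 12217 windows of tested genes. The octamer was found for 7 of the 13 members that were not called in the mean of the clones (Gins3, Orc1, Pola1, Pole2, Rfc3, Lig1 and Dtl), for Pold1 among the 9 that rose and for 0 of the 8 that fell. CCAAT was present in 52.9% of member windows, against 37.4% of all windows and 37.7% of the windows of tested genes. The letters TTTGAA, the core of the cell cycle homology region, were present in 11.8% of member windows, against 17.9% of all windows and 11.9% of the windows of tested genes. These matches describe letters in a window and say nothing of factor binding, and the motifs do not overlap in the windows printed.

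Among the 7 genes of the helicase and origin recognition, Gins1, Gins2 and Orc6 rose (42.9%) and 0 fell in the mean of the clones. At an unadjusted p under 0.05 edgeR gave 0 lower, and DESeq2 gave 0. Over all genes 26.6% were called higher and 29.4% lower. With chromosome medians removed, as described below, Gins1 (0.12), Gins2 (0.23) and Orc6 (0.19) lost their calls and Gins3 was called lower. Gins2, a subunit of the GINS ring, was at 41.4 and 43.7 CPM in KO clone 1 and 51.9 and 53.5 CPM in KO clone 2, against 29.0 and 34.5 CPM in WT. All 4 knockout libraries were above both WT libraries, by a log2 fold change of 0.57 ± 0.11 (SE, edgeR adjusted p = 0.00045). Between 20.8% and 27.0% of the stranded reads at Gins2 lay on the opposite strand. Orc6, the smallest subunit of the origin recognition complex, was at 83.6 and 97.2 CPM in KO clone 1 and 84.9 and 89.8 CPM in KO clone 2, against 65.4 and 58.3 CPM in WT. The clones overlapped each other and neither overlapped WT (0.53 ± 0.11, adjusted p = 0.000672). Gins1, another GINS subunit, was at 20.0 and 24.3 CPM in KO clone 1 and 18.8 and 23.4 CPM in KO clone 2, against 17.8 and 15.4 CPM in WT. Its call in the mean of the clones (0.39 ± 0.14, adjusted p = 0.0249) was lost without KO clone 1 replicate 2 (0.32), KO clone 2 replicate 2 (0.30) or WT replicate 2 (0.29).

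The other members of the group gave smaller values. Cdc45, the helicase cofactor, was at 54.7 and 61.0 CPM in KO clone 1 and 78.1 and 69.2 CPM in KO clone 2, against 75.9 and 70.7 CPM in WT. It fell in KO clone 1 (-0.34, adjusted p = 0.0278), while KO clone 2 overlapped WT (0.01, adjusted p = 0.965). The remaining GINS subunit genes Gins3 (0.03) and Gins4 (0.15) and Orc1 (0.15), which encodes the largest origin recognition subunit, were not called in the mean of the clones.

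Of the 8 genes of the replicative polymerases and primase, Pold1 and Pold2 rose (25%), Prim1 fell (12.5%) and 5 were not called. Over all genes 26.6% were called higher and 29.4% lower. Prim1 encodes the catalytic subunit of primase, which makes the RNA primers. It was at 52.1 and 56.3 CPM in KO clone 1 and 50.2 and 50.6 CPM in KO clone 2, against 96.0 and 71.9 CPM in WT. Both clones were below both WT libraries, by -0.68 ± 0.12 (adjusted p = 0.000118), and the WT libraries differed from each other by more than any pair of knockout libraries did. Its partner Prim2, the large primase subunit, was at 40.3 and 42.4 CPM in KO clone 1 and 52.6 and 45.5 CPM in KO clone 2, against 53.2 and 43.9 CPM in WT, and was not called (-0.10 ± 0.11, adjusted p = 0.461).

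Of the polymerase delta genes, Pold2 was higher in KO clone 2 than in KO clone 1 with all libraries in the fit. Pold1 was not called between the clones in that fit. Pold2, an accessory subunit, was at 70.1 and 73.2 CPM in KO clone 1 and 112 and 92.2 CPM in KO clone 2, against 63.0 and 51.6 CPM in WT. Its log2 fold change was 0.84 ± 0.13 in KO clone 2 (adjusted p = 7.33e-05) and 0.33 ± 0.13 in KO clone 1 (adjusted p = 0.0529), and the clones differed by 0.51 ± 0.13 (adjusted p = 0.0113), or by 0.37 without KO clone 2 replicate 1 (adjusted p = 0.166). Pold1, the catalytic subunit, was at 127 and 122 CPM in KO clone 1 and 151 and 152 CPM in KO clone 2, against 82.9 and 119 CPM in WT. It was called in the mean of the clones (0.44 ± 0.13, adjusted p = 0.00719) and in KO clone 2 (0.58, adjusted p = 0.00272), but without WT replicate 1 its mean difference was 0.22 (adjusted p = 0.1). The difference of Pold1 between the clones was not called (0.28 ± 0.14, adjusted p = 0.159). With only the clones in the edgeR fit it was called (0.28, adjusted p = 0.0302).

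The catalytic polymerase alpha gene Pola1 differed between the clones. It was at 87.5 and 97.2 CPM in KO clone 1 and 51.3 and 75.2 CPM in KO clone 2, against 76.4 and 75.8 CPM in WT. Neither clone was called against WT (0.28, adjusted p = 0.134 in KO clone 1, and -0.26, adjusted p = 0.155 in KO clone 2), and KO clone 2 was lower than KO clone 1 by -0.54 ± 0.15 (adjusted p = 0.0169). The 2 libraries of KO clone 2 lay far apart, and without replicate 1 of KO clone 2 the difference was -0.29 (adjusted p = 0.219). Its accessory subunit gene Pola2 (0.08) and the polymerase epsilon genes Pole (-0.02), the catalytic subunit, and Pole2 (0.12), an accessory subunit, were not called in the mean of the clones.

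**Figure D2:**
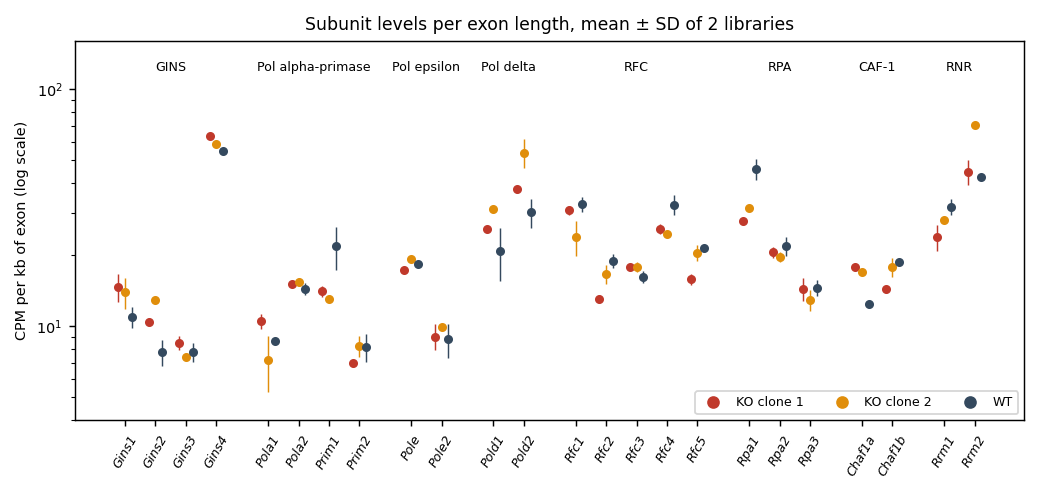
Level of the subunits of each complex as CPM per kilobase of exon on a log axis, mean ± SD of 2 libraries for KO clone 1, KO clone 2 and WT. Prim1 and Prim2 were at 14.0 and 6.96 CPM per kilobase in KO clone 1, 13.0 and 8.26 in KO clone 2, and 21.7 and 8.18 in WT.

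The plot of levels per exon length sets subunits of 1 complex beside each other, using the union of annotated exons as length. The Prim1 level per kilobase was 14.0 ± 0.78 in KO clone 1 and 13.0 ± 0.074 in KO clone 2, against 21.7 ± 4.4 in WT (SD, n = 2 each). The Prim2 level per kilobase was 6.96 ± 0.25 in KO clone 1 and 8.26 ± 0.85 in KO clone 2, against 8.18 ± 1.1 in WT. Prim1 lay above Prim2 in all 3 groups. In the GINS ring the Gins4 level per kilobase, 63.2 ± 0.14 in KO clone 1 and 58.7 ± 0.91 in KO clone 2 against 54.9 ± 0.25 in WT, was the highest of the 4 subunits in each group. Union lengths can overstate the transcript in use, so the order between genes is approximate.

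Among the clamp and its loader, Pcna rose (16.7%), the loader genes Rfc1, Rfc2, Rfc4 and Rfc5 fell (66.7%) and Rfc3 was not called. Over all genes 26.6% were called higher and 29.4% lower. With chromosome medians removed, as described below, Rfc4 alone of these kept its call and Rfc3 was called higher. Pcna, the sliding clamp, was at 204 and 246 CPM in KO clone 1 and 175 and 208 CPM in KO clone 2, against 147 CPM in both WT libraries. Both clones were above WT and overlapped each other (0.50 ± 0.11, adjusted p = 0.00125). Among pseudogenes named after a member, the annotation lists Pcna-ps1, Pcna-ps2 and Tyms-ps. Reads shared with such copies make the counts of Pcna and Tyms uncertain. Copies of any member under other names were not searched for.

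Rfc4, a small subunit of the loader, was at 38.2 and 40.7 CPM in KO clone 1 and 36.6 and 38.3 CPM in KO clone 2, against 53.3 and 46.5 CPM in WT. It was called lower in both clones (-0.37 ± 0.11 in their mean, adjusted p = 0.00699), though without WT replicate 1 the mean difference was -0.27 (adjusted p = 0.0593). Rfc2, another small subunit, was at 80.0 and 84.3 CPM in KO clone 1 and 112 and 97.6 CPM in KO clone 2, against 113 and 125 CPM in WT. It fell in KO clone 1 (-0.54, adjusted p = 0.00136), was at -0.19 in KO clone 2 (adjusted p = 0.192), and was higher in KO clone 2 than in KO clone 1 by 0.35 ± 0.12 (adjusted p = 0.0436).

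Rfc5, a further small subunit, gave -0.43 in KO clone 1 (adjusted p = 0.00558) and -0.06 in KO clone 2 (adjusted p = 0.69), a difference of 0.37 ± 0.12 between the clones (adjusted p = 0.0293). At Rfc5, 14.0% to 17.5% of the stranded reads were on the opposite strand, and at each of the 34 members other than Gins2 and Rfc5 the share was at most 4.89%. Rfc1, the large subunit, was at 180 and 192 CPM in KO clone 1 and 126 and 161 CPM in KO clone 2, against 206 and 187 CPM in WT. It fell in KO clone 2 (-0.45, adjusted p = 0.00735), was at -0.08 in KO clone 1 (adjusted p = 0.613), and was lower in KO clone 2 than in KO clone 1 by -0.37 ± 0.13 (adjusted p = 0.0472). Without KO clone 2 replicate 1 these were -0.28 against WT (adjusted p = 0.112) and -0.20 against KO clone 1 (adjusted p = 0.375). The Rfc1 and Rfc5 calls in the mean of the clones lay near the threshold (adjusted p = 0.049 and 0.0464) and were lost without any one of 4 and 5 of the 6 libraries in turn.

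Of the 4 genes of deoxynucleotide synthesis, Tk1 and Rrm2 rose, and Rrm1 and Tyms fell in the mean of the clones. Over all genes 26.6% were called higher and 29.4% lower. Tk1, thymidine kinase of the salvage pathway, was at 118 and 129 CPM in KO clone 1 and 166 and 143 CPM in KO clone 2, against 76.0 and 88.8 CPM in WT. The groups did not overlap, and the log2 fold change was 0.58 ± 0.13 in KO clone 1 (adjusted p = 0.00116) and 0.90 ± 0.13 in KO clone 2 (adjusted p = 1.82e-05). The difference between the clones was not called with all libraries in the fit (0.32 ± 0.12, adjusted p = 0.0674). With only the clones in the edgeR fit it was called (0.32, adjusted p = 0.0272).

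Of the genes of ribonucleotide reductase, Rrm2 was called in KO clone 2 and Rrm1 in KO clone 1. Rrm2, the small regulatory subunit, was at 113 and 135 CPM in KO clone 1 and 193 and 200 CPM in KO clone 2, against 120 and 116 CPM in WT. KO clone 1 overlapped WT (0.07 ± 0.12, adjusted p = 0.627) and KO clone 2 stood above both (0.73 ± 0.12 against WT, adjusted p = 7.76e-05, and 0.66 ± 0.12 against KO clone 1, adjusted p = 0.00111). Rrm1, the large catalytic subunit, was at 238 and 285 CPM in KO clone 1 and 310 and 309 CPM in KO clone 2, against 369 and 332 CPM in WT. It fell in KO clone 1 (-0.42, adjusted p = 0.00766) and was at -0.18 in KO clone 2 (adjusted p = 0.221). Its call in the mean of the clones (-0.30, adjusted p = 0.0199) was lost without KO clone 1 replicate 1 (-0.24) or WT replicate 1 (-0.21). Tyms, thymidylate synthase, was at 55.6 and 60.6 CPM in KO clone 1 and 69.3 and 63.4 CPM in KO clone 2, against 77.2 and 71.3 CPM in WT. All 4 knockout libraries were lower than both WT libraries, and the mean difference of -0.26 ± 0.10 was close to the threshold (adjusted p = 0.0417) and was lost without any one of 4 libraries in turn.

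Ung and Fen1 moved apart among the 3 genes of flap removal, ligation and uracil repair. In the mean of the clones Ung was called higher and Fen1 lower, as were 26.6% and 29.4% of all genes. Ung, the glycosylase that removes uracil from DNA, was at 21.3 and 23.0 CPM in KO clone 1 and 31.2 CPM in both libraries of KO clone 2, against 8.68 and 12.0 CPM in WT. It had the fewest reads of any member in a single library, 88. Ung was 2.11-fold higher in KO clone 1 (adjusted p = 3.35e-05) and 2.97-fold higher in KO clone 2 (adjusted p = 5.12e-07) than in WT, and KO clone 2 exceeded KO clone 1 by 0.49 ± 0.14 on the log2 scale (adjusted p = 0.0197). Fen1, the nuclease that trims lagging strand flaps, was at 99.3 and 98.9 CPM in KO clone 1 and 99.8 and 111 CPM in KO clone 2, against 143 and 165 CPM in WT. The knockout libraries were close together and all below WT (-0.59 ± 0.10, adjusted p = 0.000111). Lig1, DNA ligase I, was at 124 and 137 CPM in KO clone 1 and 159 and 157 CPM in KO clone 2, against 149 and 132 CPM in WT, and was not called (0.03 ± 0.10, adjusted p = 0.81).

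Of the 3 genes of the single-strand binding complex RPA, Rpa1 fell and the others were not called, where 29.4% of all genes were called lower. Rpa1, the large DNA-binding subunit, was at 155 and 154 CPM in KO clone 1 and 174 and 177 CPM in KO clone 2, against 238 and 276 CPM in WT. Neither clone overlapped WT (-0.64 ± 0.10, adjusted p = 3.38e-05). Rpa2 and Rpa3, the smaller subunits, were at -0.12 ± 0.10 and -0.08 ± 0.13 in the mean of the clones.

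**Figure D3:**
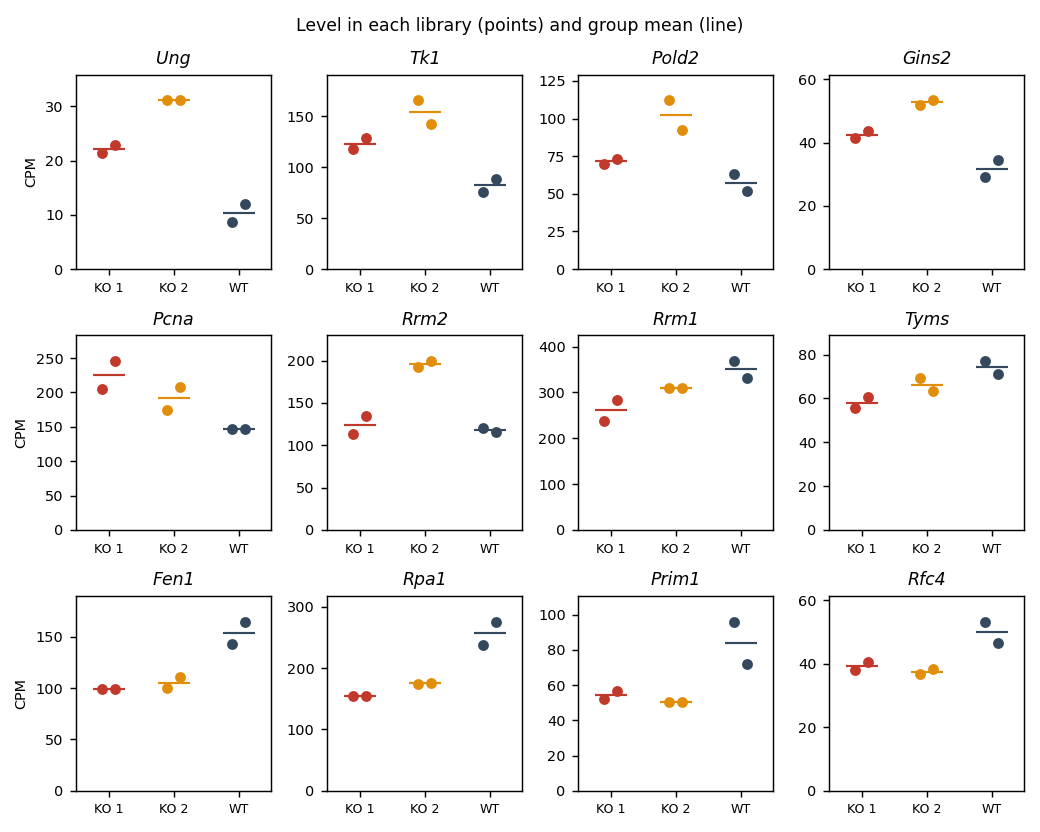
CPM in each library (points) with the group mean (line) for 12 of the genes, in KO clone 1 (KO 1), KO clone 2 (KO 2) and WT. Ung and Tk1 are higher in all 4 knockout libraries, Fen1, Rpa1, Prim1 and Rfc4 are lower in all 4, and Rrm2 is higher in KO clone 2 at 193 and 200 CPM against 120 and 116 CPM in WT.

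Of the 3 genes of chromatin and histone supply, Chaf1a rose and the others were not called in the mean of the clones. There 26.6% of all genes were called higher and 29.4% lower. Chaf1a, the large subunit of chromatin assembly factor 1, which places histones on new DNA, was at 156 and 159 CPM in KO clone 1 and 147 and 152 CPM in KO clone 2, against 107 and 113 CPM in WT (0.48 ± 0.10, adjusted p = 0.000566). The groups did not overlap. Chaf1b, the middle subunit of the same factor, was at 65.4 and 68.6 CPM in KO clone 1 and 88.9 and 77.8 CPM in KO clone 2, against 87.3 and 87.5 CPM in WT. It fell in KO clone 1 (-0.38, adjusted p = 0.0125), while KO clone 2 overlapped WT (-0.07, adjusted p = 0.644). Slbp, which binds the stem-loop of histone mRNAs, was at -0.19 ± 0.11 in the mean of the clones (adjusted p = 0.148).

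Of the 2 regulators, E2f1 rose and Dtl was not called in the mean of the clones, where 26.6% of all genes were called higher and 29.4% lower. E2f1, a transcription factor of S phase genes, was at 33.5 and 35.4 CPM in KO clone 1 and 41.5 and 38.5 CPM in KO clone 2, against 23.6 and 30.2 CPM in WT (0.45 ± 0.12, adjusted p = 0.00478). Both clones lay above both WT libraries, but the E2f1 call in KO clone 1 was lost by DESeq2, by limma-voom and in most of the other alternatives. Dtl, the substrate receptor CDT2 of the CRL4 ubiquitin ligase, was at 87.9 and 94.8 CPM in KO clone 1 and 67.4 and 77.4 CPM in KO clone 2, against 102 and 78.7 CPM in WT (-0.15 ± 0.12, adjusted p = 0.299). The WT libraries were wide enough apart that KO clone 1 lay between them, while both KO clone 2 libraries were below both (-0.31, adjusted p = 0.062). Without WT replicate 2, Dtl was called lower in the mean of the clones (-0.32, adjusted p = 0.0277) and in KO clone 2 (-0.49, adjusted p = 0.00386).

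Against KO clone 1, 6 members were higher in KO clone 2 (Rrm2, Pold2, Ung, Rfc5, Cdc45 and Rfc2) and 2 were lower (Pola1 and Rfc1), where 12.1% of all genes were called higher and 11.4% lower, 23.5% in either direction. With each library left out in turn, Rrm2 was the 1 of these 8 calls that was kept every time. Ung differed by 0.44 to 0.55 between the clones without any one knockout library and was not called in those 4 fits. With only the clones in the fit, Tk1, Pold1, Lig1, Gins2 and Chaf1b were also called higher in KO clone 2 and Dtl lower. That fit called 17.7% of all genes higher and 16.4% lower. The 16 members not called in the mean of the clones had differences between -0.23 and 0.15, with 95% intervals between -0.44 and 0.39. Those bounds correspond to 0.737-fold and 1.31-fold, and a missed threshold does not show equal levels.

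Many calls sat on chromosomes whose genes were shifted together. The median log2 fold change of all tested genes on a chromosome reached 0.55 in KO clone 1 and 0.39 in KO clone 2 and went down to -0.41 in KO clone 1 and -0.36 in KO clone 2, these being the extremes over chromosomes. On chromosomes 2, 6, 8 and 17 the median was above 0.15 in both clones, a limit chosen after the values were seen. These chromosomes hold 9 members, of which 6 rose and 0 fell in edgeR. At an unadjusted p under 0.05 edgeR gave 0 lower, and DESeq2 gave 0. The chromosomes were picked for raised medians, so the choice itself favours rises there. The share of all genes called on them was not counted, so these counts are no result about the members. The other 27 members include 5 that rose and 9 that fell, and 4 of those 9 are on chromosome 5, which holds 8 members (median -0.17 in both clones). Pcna, Gins1 and E2f1 are on chromosome 2 (median 0.26 in KO clone 1 and 0.29 in KO clone 2), Gins2 and Orc6 on chromosome 8 (0.28 and 0.39) and Chaf1a on chromosome 17 (0.55 and 0.17). Prim1 is on chromosome 10, where the median was -0.41 in KO clone 1 and -0.36 in KO clone 2.

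**Figure D4:**
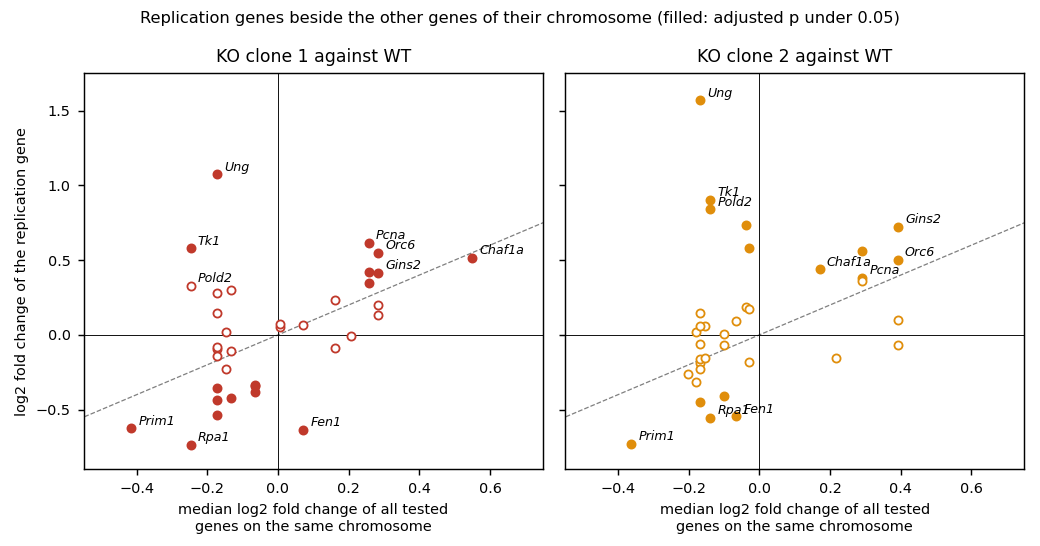
Log2 fold change of each of the 36 genes (vertical) against the median log2 fold change of all tested genes on its chromosome (horizontal), for KO clone 1 and KO clone 2 against WT; the dashed line marks equal values and filled points are called. Pcna, Gins2, Orc6 and Chaf1a lie to the right and Prim1 to the left, while Ung, Tk1 and Pold2 lie far above the line.

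With the median of each chromosome removed, 6 members were higher and 5 lower in the mean of the clones. Over all genes 25.7% were called higher and 26.9% lower in that fit. Ung (1.49), Tk1 (0.93), Pold2 (0.78), Pold1 (0.52) and Rrm2 (0.42) stayed higher, and Fen1 (-0.59), Rpa1 (-0.45), Rfc4 (-0.29) and Prim1 (-0.29) stayed lower, so 9 of the 20 calls were kept. All 6 members that had risen on chromosomes 2, 8 and 17 lost their call, with Pcna at 0.23 (adjusted p = 0.0988), Gins2 at 0.23 (adjusted p = 0.0926), Orc6 at 0.19 (adjusted p = 0.155), E2f1 at 0.18 (adjusted p = 0.228), Gins1 at 0.12 (adjusted p = 0.495) and Chaf1a at 0.12 (adjusted p = 0.319). The 4 members that had fallen on chromosome 5 also lost their call, with Rfc2 at -0.19 (adjusted p = 0.127), Rfc1 at -0.10 (adjusted p = 0.487), Tyms at -0.09 (adjusted p = 0.499) and Rfc5 at -0.08 (adjusted p = 0.551). Rrm1 lost its call as well (-0.22, adjusted p = 0.0831). Rfc3 (0.32, adjusted p = 0.0165) and Gins3 (-0.30, adjusted p = 0.0417) were called there and not before. The reason for the chromosome shifts was not tested.

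Related genes outside the 36 were counted in 6 lists. Of 18 deoxynucleotide and thymidylate genes, 9 rose and 0 fell in the mean of the clones (edgeR, with 0 lower at an unadjusted p under 0.05 and 0 by DESeq2), with a median of 0.41. In KO clone 2, 1 was called lower, and without WT replicate 2 the mean of the clones was not free of falls either. Of 17 genes of de novo purine and pyrimidine synthesis, 11 rose and 3 fell (median 0.40), against 26.6% higher and 29.4% lower over all genes. With the minimum change of 1.5-fold, 3 deoxynucleotide genes and 2 synthesis genes were higher, and 0 of either list were lower. That setting called 8.55% of all genes higher and 12.4% lower.

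Mthfd2, a mitochondrial folate enzyme, was at 308 and 332 CPM in KO clone 1 and 367 and 331 CPM in KO clone 2, against 111 and 84.8 CPM in WT (1.78, adjusted p = 6.32e-09). Dctd, which deaminates dCMP to supply thymidylate synthase, was at 58.2 and 58.1 CPM in KO clone 1 and 83.2 and 66.7 CPM in KO clone 2, against 22.7 and 18.5 CPM in WT (1.69, adjusted p = 2.51e-08). In each of the 4 knockout libraries both genes were above both WT libraries. Shmt2, which feeds serine carbon into folate, rose by 0.84 and Samhd1, which degrades dNTPs, by 0.60. Among the synthesis genes Impdh1 (1.08), Gart (0.88), Cad (0.82) and Ctps (0.62), enzymes of GMP, purine, pyrimidine and CTP synthesis, rose. Prps2 (-0.53), a phosphoribosyl pyrophosphate synthetase, and Ctps2 (-0.35), the second CTP synthetase, fell. With chromosome medians removed Ctps2 was at -0.17 and not called (adjusted p = 0.18), and 1 gene of the list was lower in place of 3.

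**Figure D5:**
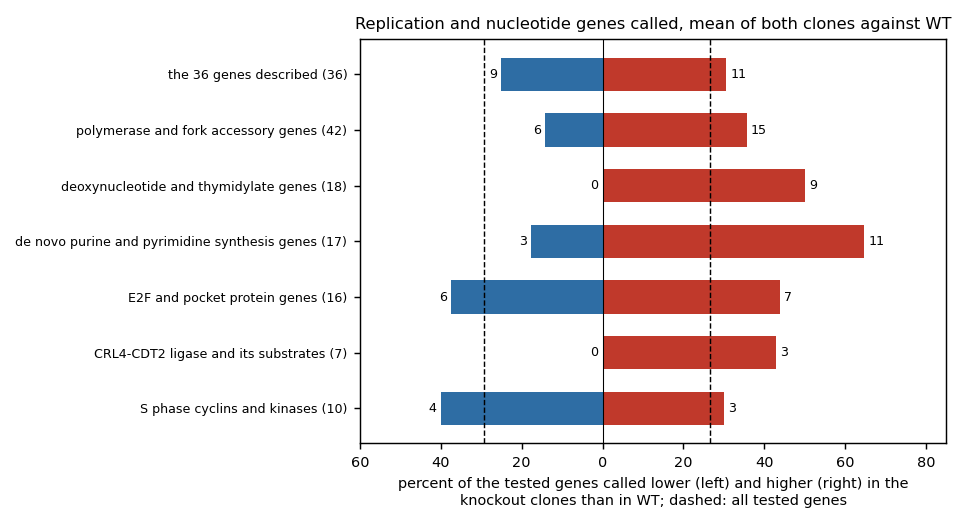
Percent of the tested genes of each list called higher (right) and lower (left) in the mean of both knockout clones against WT, with the number of genes at each bar and dashed lines for all genes tested at 26.6% and 29.4%. The bars of the 36 genes end near the dashed lines, and the deoxynucleotide and purine and pyrimidine lists reach further right, at 50% and 64.7%.

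In the mean of the clones 26.6% of all genes were called higher and 29.4% lower. Of 42 polymerase and fork accessory genes, 15 rose (35.7%) and 6 fell (14.3%), with a median of 0.09. With upper-quartile scaling 10 were higher and 11 lower, where 23.4% and 33.4% of all genes were. With the minimum change of 1.5-fold 1 was higher and 1 lower, where 8.55% and 12.4% of all genes were. Pold4, the smallest polymerase delta subunit, rose by 1.01 and Mcm5, a subunit of the MCM helicase, by 0.68, while Atad5, which unloads PCNA, fell by 1.17 and Clspn, a fork checkpoint mediator, by 0.76 on the log2 scale. Of 16 E2F and pocket protein genes, 7 rose (43.8%) and 6 fell (37.5%). E2f4 (1.13) and E2f5 (0.80), E2F factors that partner with pocket proteins, were higher. Rbl2 (-0.81), a pocket protein, and Tfdp2 (-0.82), an E2F dimer partner, were lower.

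The CRL4-CDT2 ligase, for which Dtl is the receptor, destroys its substrates during S phase. Of the 7 genes of the ligase and its substrates other than Dtl, 3 rose (42.9%) and 0 fell in edgeR. Over all genes 26.6% were called higher and 29.4% lower. At an unadjusted p under 0.05 edgeR gave 0 lower, and DESeq2 gave 0. Those that rose were the substrate genes Cdkn1a (1.69), a CDK inhibitor, Cdt1 (0.97), an origin licensing factor, and Kmt5a (0.39), a histone methyltransferase. The call of Kmt5a was lost without WT replicate 2 (0.28), and in that fit the list was not free of falls. A further list of 10 genes held Ccnd1, Ccne1, Ccne2, Ccna2, Cdk2, Cdk4, Cdk6, Cdc6, Gmnn and Cdkn1b. It mixes genes of G1 and S phase, and Cdc6, Gmnn and Cdkn1b encode neither cyclins nor kinases. Of these 10 genes, 3 rose and 4 fell in the mean of the clones, and those that rose were Ccnd1, Ccne1 and Cdk6. Ccnd1, cyclin D1, was at 1908 and 1976 CPM in KO clone 1 and 2136 and 2272 CPM in KO clone 2, against 535 and 553 CPM in WT (1.93, adjusted p = 4.55e-10). Ccne1, cyclin E1, rose by 1.56 and Cdk6, a cyclin D partner, by 0.71. No member of the list was called lower in both clones, and the count of 4 was 2 without WT replicate 1 or KO clone 1 replicate 1, and 1 without KO clone 2 replicate 1.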

How the data were processed

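Counts of reads per gene were deposited for each of the 6 libraries, 1 table a library, not normalized by the authors. Per the labels' protocols the kit was stranded. The submitters' processing notes name FastQC, STAR 2.6.0c and the build GRCm38. The annotation behind the gene IDs is not given in the sources used here. Of the stranded gene reads, 92.3% to 95.7% stood in column 4 of the tables, which was used. Summary rows without a gene were dropped, and 43.2% to 53.1% of all reads lay in genes. Symbols, chromosomes and exon lengths came from GENCODE M21, which matched 54079 of 54146 IDs, and all 36 members were matched and tested.

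In R 4.3.3, edgeR 4.0.16 kept genes by filterByExpr (13755 of 26172 with a read), scaled libraries by TMM and fitted a robust quasi-likelihood model with 1 term per group to all 6 libraries, with 3 residual degrees of freedom. The threshold for a call was a Benjamini-Hochberg adjusted p of 0.05 over all genes tested. The fit was tested on simulated counts with known changes, where its share of false calls was above the nominal 0.05 in each comparison with WT. Libraries of a group differed by more than sampling noise, with a chi-square per degree of freedom of 17.7 in KO clone 1, 25.0 in KO clone 2 and 78.8 in WT. All 36 members were named. From each related list up to 4 genes called in both clones the same way with the smallest adjusted p were named, and up to 3 called against most of the list. Members and lists were chosen with earlier results of these data known. Alternatives used DESeq2 1.42.0, limma 3.58.1, other scalings, filters and strand columns, a minimum change of 1.5-fold, the groups compared alone, a replicate block, chromosome medians removed, and each library left out in turn.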

Additional observations from a re-analysis of the deposited data

Results flagged for a closer look

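The 8 members that differed between the knockout clones are listed because the difference itself passed the test (edgeR quasi-likelihood test, Benjamini-Hochberg adjusted p under 0.05 over all genes tested). On the log2 scale, KO clone 2 minus KO clone 1, the difference was 0.66 for Rrm2, 0.51 for Pold2, 0.49 for Ung, 0.37 for Rfc5, 0.35 for Cdc45, 0.35 for Rfc2, -0.37 for Rfc1 and -0.54 for Pola1. In KO clone 2 the Pola1 libraries were at 51.3 and 75.2 CPM and those of Rfc1 at 126 and 161 CPM, so replicate 1 was the lower library for both. With each library left out in turn, Rrm2 kept its call every time and each of the other 7 lost it at least once. Each clone is 1 line, and how far other clones of these cells would differ was not tested.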

How the results depend on the processing

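Of the 20 members called in the mean of both clones, 13 kept their call with each library left out in turn. Ung, Tk1, Pold2, Rrm2, Prim1, Fen1 and Rpa1 were the 7 that kept it in all 15 alternatives other than the minimum change of 1.5-fold. Counts of members called are given as higher and lower. With the minimum change they were 1 and 0 in the mean of the clones and 1 and 0 in KO clone 1. In KO clone 2 they were 3 and 0, and between the clones 0 and 0. The same setting called 8.55% of all genes higher and 12.4% lower in the mean of the clones. The shares were 8.11% and 11.4% in KO clone 1, 9.07% and 13% in KO clone 2, and 1.34% and 1.16% between the clones. At an unadjusted p under 0.05 the same edgeR test gave 2 and 0, 1 and 1, 5 and 0, and 0 and 0 members. DESeq2 without a minimum gave 11 and 6, 6 and 10, 10 and 5, and 6 and 1. Over all genes DESeq2 called 24.3% higher and 25.7% lower in the mean of the clones. Its shares were 21.2% and 22.7% in KO clone 1, 23.2% and 24% in KO clone 2, and 11.1% and 7.97% between the clones. Chromosome medians removed gave 6 and 5 in the mean of the clones and 4 lower in KO clone 1, where Chaf1a turned to -0.0343 (adjusted p = 0.821). That fit called 25.7% of all genes higher and 26.9% lower in the mean, and 23.3% lower in KO clone 1. No count filter gave 5 lower in the mean and 6 lower in KO clone 1, where 14.5% and 12.6% of all genes were called lower. Between the clones, 1 was lower with DESeq2 size factors, the DESeq2 test, limma-voom, unstranded counts or chromosome medians removed. Those settings called 7.97% to 10.8% of all genes lower. With only the groups compared 11 were higher, where 17.7% of all genes were, against 12.1% with all libraries. The cause of these shifts was not tested. Upper-quartile scaling moved the median of all genes to -0.11 in KO clone 2, and gave 10 and 11 in the mean of the clones. In that mean it called 23.4% of all genes higher and 33.4% lower.

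With 1 library left out, taking a lone library to vary as the pairs do, the mean of the clones gave 10 to 11 higher and 4 to 9 lower, KO clone 1 gave 5 to 8 and 4 to 11, KO clone 2 gave 9 to 12 and 3 to 7, and the comparison of the clones gave 1 to 11 and 0 to 3. The lowest counts came without WT replicate 1 (4 lower in the mean), KO clone 1 replicate 1 (4 lower in KO clone 1, and 5 in the mean), KO clone 1 replicate 2 (5 higher in KO clone 1) and KO clone 2 replicate 1 (3 lower in KO clone 2). Between the clones, 1 was higher without replicate 1 of either clone, 2 without KO clone 1 replicate 2 and 3 without KO clone 2 replicate 2, and 11 were higher without either WT library. Replicate numbers did not pair the libraries: deviations of replicate 1 correlated across genes at -0.16, 0.08 and 0.0047 between the groups. The replicate block gave 11 and 6 in the mean, 7 and 9 in KO clone 1, 10 and 5 in KO clone 2, and 4 and 2 between the clones. Over all genes its shares were 25.8% and 28.5%, 23.7% and 25.1%, 24.5% and 27.4%, and 10.8% and 10.6%, in the same order. With 2 libraries a group, the 95% intervals of members not called reached 0.737-fold and 1.31-fold.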
